A study of Danio rerio with 6 samples.

Results

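Cytokines and chemokines are secreted or membrane-bound signals of the immune system, and this group of zebrafish genes holds those signals and their receptors. Members were the genes whose symbol, ignoring case, was "il" followed by a digit, "ccl" or "ccr" followed by a digit, or began with cxcl, cxcr, tnfa, tnfb, tnfrsf, tnfsf, ifnphi or ifng. The rule used no measured value and found 168 genes, each an Ensembl ID of its own, among 35117 IDs, of which 27000 had a symbol. They comprised 33 CC chemokines, 17 CXC chemokines, 21 chemokine receptors, 26 interleukins and 27 interleukin receptors. There were also 10 ligands and 11 receptors of the tumour necrosis factor (TNF) superfamily and 5 interferons. A further 4 were sorted as interferon gamma receptors by the spelling of their symbols, which for ifng1r may not hold. Another 14 met the spelling alone: 9 TNFAIP genes, named for their induction by TNF, 3 IL1RAPL genes, which in mammals encode synaptic proteins related to the interleukin 1 receptor, and the genes il16 and il4i1.

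Cytokines act by binding receptors on the same or a neighbouring cell: most interleukins and interferons signal through JAK kinases and STAT factors, interleukin 1 and TNF through NF-kB, and chemokines through G protein-coupled receptors that guide cell migration. In the gut, epithelial cells are known both to release such signals and to carry receptors for the signals of immune cells beneath them. Lysosome rich enterocytes are cells of the larval fish intestine that take up protein and dextran from the lumen by endocytosis and degrade it in large lysosomes.

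Both groups came from EK-strain larvae labelled wild type, which carried GFP driven by cldn15la, an intestinal epithelial claudin gene. Larvae were given 1 to 2 nl of fluorescent dextran at 2.5 mg/ml by gavage at 5 days after fertilization. Cells were dissociated enzymatically 24 hours later, at 6 days, and sorted. Of the RNA-seq libraries, 3 held GFP-positive cells of the intestinal epithelium (IEC) and 3 held cells with both GFP and dextran, the lysosome rich enterocytes (LRE). Whether the IEC gate left out cells with dextran is not in the labels, nor is the meaning of a replicate number. The p-values therefore reflect the spread among these 6 libraries alone, and that spread may be technical.

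Total counts ran from 39590129 to 53250871 a library. LRE library 1 stood apart, with 19396 genes read against 22974 to 25610 in the others. Levels are given as CPM, a gene's counts scaled to a common library total with TMM factors (the usual CPM measure), and show a gene across libraries rather than one gene against another, since they are not per length. Of the 9 genes matched to LRE markers, 8 were higher in LRE (p adjusted by Benjamini-Hochberg under 0.05 in edgeR's quasi-likelihood test), and their summed level was 505 to 681 CPM in IEC and 17177 to 37581 CPM in LRE. Both groups carried the epithelial markers, at 7258 to 10039 and 5728 to 6417 CPM, of which FABP2, a fatty acid binding protein of enterocytes, was lower in LRE.

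Reads were found for 156 of the 168 members, and the other 12 had 0 in every library, a count that allows up to 3 counts in each, or 0.0431 to 0.102 CPM. Among those 12 were tnfsf13, the interleukin 12 and 23 subunit genes il12ba and il23a, il17a/f2, il17a/f3, and the interferon genes ifnphi2 and ifnphi4. The low-count filter passed 119 members, and 87 members had a read in all 6 libraries. The 37 that had reads and failed the filter held 1 to 466 counts over all libraries, with a median of 19. Members took between 0.0796% of a library's counts, in LRE 1, and 0.284%, in IEC 2.

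Of the 119 members tested, 7 differed between the cell groups (5.88%), against 3.21% of all genes. CXCL14 and tnfsf10l were higher in LRE, that is 1.68% of those tested against a background of 2.30%. The genes il1fma, CXCR4, tnfrsf11a, il22ra2 and il12rb1 were lower in LRE, or 4.20% against a background of 0.910%. Of these, il22ra2 and il12rb1 passed the low-count filter only through their IEC libraries, so a call for them could hardly be in the other direction. The median log2 fold change was -0.36 over the tested members and -0.06 over all genes. A negative value was found for 74 of the 119 members, against 11119 of the 20979 genes tested. Some of the 74, such as CCR6 (ENSDARG00000038968), il12b2, il12bb and ccl33.3, also met the low-count filter only through their IEC libraries. Their sign could hardly be positive, and the sign count and the median include them. IEC library 2 held the highest IEC value for 62 of the 119 members. Without it the members' median was 0.08, with 57 of 120 negative and 1 call, il1fma. In bulk libraries like these, fewer cells of a type and less RNA per cell cannot be told apart.

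**Figure D1:**
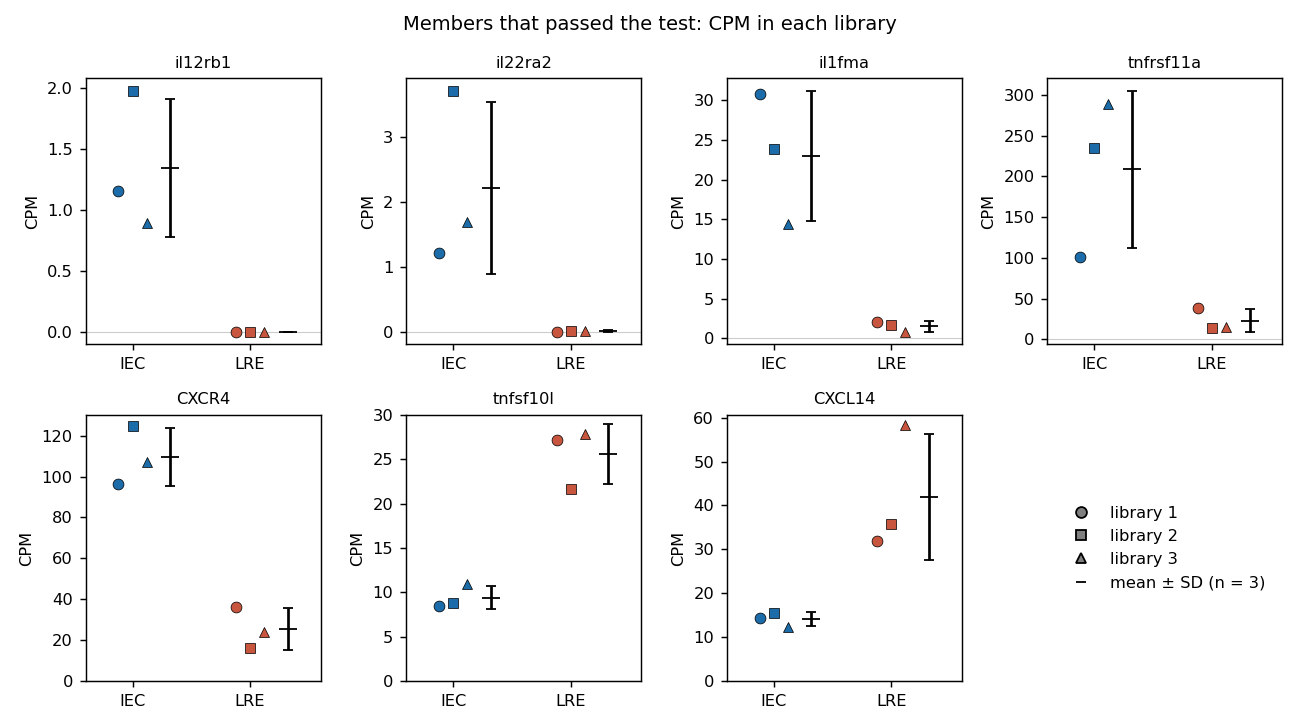
CPM in each library for the 7 members that passed the test, with 1 panel a gene, IEC in blue, LRE in red, marker shape for the library number, and a bar for the mean ± SD (n = 3). The groups do not overlap in any of the 7 panels; 5 genes lie lower in LRE and CXCL14 and tnfsf10l lie higher.

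The 3 values of one group lay wholly above the 3 of the other for 33 tested members (27.7%), a share close to the 26.8% among all genes tested. LRE lay above IEC for 14 of them (11.8% against 13.0%) and below for 19 (16.0% against 13.8%). Some of the 19, such as CCR6 (ENSDARG00000038968), il12rb1 and il22ra2, met the low-count filter only through their IEC libraries.

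Of 26 interleukin genes 15 were tested and 1 passed, lower in LRE. Of the 15, 14 had a negative log2 fold change, with a median of -1.35 (13 negative in limma voom, with the replicate block and without IEC library 2). Over all 20979 genes tested 11119 were negative, with a median of -0.06. Some of the 15, il12b2 and il12bb among them, met the low-count filter only through their IEC libraries, so their sign could hardly be positive. The gene that passed the test was il1fma, a member of the interleukin 1 family in fish. Its levels were 30.8, 23.9 and 14.4 CPM in IEC and 2.05, 1.66 and 0.781 CPM in LRE. Every LRE library thus lay far below the lowest IEC library. The log2 fold change was -3.95 ± 0.52 (SE, adjusted p = 0.00761, edgeR), and it passed without any 1 library, at adjusted p from 0.0141 to 0.0355.

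The best known gene of that family, il1b, encodes interleukin 1 beta, a fever and inflammation signal. It read 139, 311 and 29.9 CPM in IEC and 61.8, 109.6 and 17.05 CPM in LRE. The groups overlapped, and within each group library 2 was highest and library 3 lowest. The log2 fold change of -1.35 ± 0.84 did not pass (adjusted p = 0.473, edgeR). With the replicate number as a block it was -1.16 and passed (adjusted p = 0.0416).

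Another 5 tested interleukins had groups that did not overlap but did not pass: il4, il7, il11a and the interleukin 12 beta subunit genes il12b2 and il12bb. With il1fma that made 6 of 15 below IEC (40%), against 13.8% of all genes tested. Of the 6, il12b2 and il12bb passed the low-count filter only through their IEC libraries, so they could hardly lie above IEC. The gene il7 encodes a growth factor of lymphocytes in mammals; it read 9.06, 2.87 and 5.90 CPM in IEC and 2.39, 0.910 and 0.304 CPM in LRE (adjusted p = 0.21, edgeR). The counterpart of the type 2 cytokine gene of mammals, il4, read 14.1, 2.99 and 2.38 CPM in IEC and 1.78, 0.949 and 0.976 CPM in LRE (adjusted p = 0.178). For both genes the lowest IEC library was only slightly above the highest LRE library. The levels of il12b2 were 7.90, 1.92 and 7.27 CPM against 0, 0.475 and 0 CPM (log2 fold change -5.09 ± 1.57, adjusted p = 0.137). Without LRE library 2, where all its LRE reads lay, il12b2 passed (adjusted p = 0.0369). DESeq2 called il4, il7 and il12b2 lower in LRE, and limma voom called none of them.

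The other tested interleukins overlapped between the groups. Too low to test, il17c, of the interleukin 17 family, had 19, 3 and 12 counts in IEC and 0 in LRE. The gene il22, whose product acts on epithelial cells in mammals, read 11.4, 2.93 and 0.397 CPM in IEC and 4.54, 0.771 and 0 CPM in LRE, high in library 1 and low in library 3 of each group. IL10, an anti-inflammatory cytokine gene, had a positive value: it stood at 0.533, 0.345 and 0.165 CPM in IEC and at 3.45, 0.0989 and 0.347 CPM in LRE. Its log2 fold change of 1.89 ± 1.40 (adjusted p = 0.561) became -0.63 without LRE library 1. Neither il15, a T and natural killer cell growth factor gene, nor il34, a ligand of the macrophage receptor CSF1R, passed, at log2 fold changes of -0.30 ± 0.80 and -0.61 ± 0.52.

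Receptors for interleukins gave 2 calls among 22 tested of 27, both lower in LRE, and a median log2 fold change of -0.39. Without IEC library 2 the median was -0.04, with 11 negative of 22 and no call in edgeR (4 at an unadjusted p under 0.05). Both calls were genes at or near 0 in LRE. The gene il22ra2 encodes, in mammals, a soluble protein that binds interleukin 22 and keeps it from its receptor. It read 1.22, 3.72 and 1.70 CPM in IEC and 0, 0.0198 and 0.0217 CPM in LRE. In counts this was 401 reads in IEC against 2 in LRE, a ratio of 156 after scaling (95% exact counting interval 42.9 to 1292; adjusted p = 0.0274, edgeR). The call was lost without IEC library 1, 2 or 3 or LRE library 2 or 3 (adjusted p 0.0633, 0.141, 0.0997, 0.0853 and 0.0947).

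The gene il12rb1 encodes the receptor subunit that mammals use for interleukins 12 and 23. It read 1.16, 1.98 and 0.893 CPM in IEC, 229 counts in all, and 0 in all 3 LRE libraries. It was therefore at least 59.3-fold lower in LRE, against a floor of 3 counts over the group (adjusted p = 0.0471, edgeR). The call was lost with the replicate block (adjusted p = 0.112), under scaling by totals alone (0.0638) and without any 1 library except LRE 1 (0.0993 to 0.174). A second subunit gene, il12rb2l, read 6.18, 26.0 and 10.7 CPM in IEC and 3.18, 13.1 and 4.10 CPM in LRE, overlapping and highest in library 2 of each group.

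Several other receptor genes had reads in every library and did not pass. The gene il10rb encodes a subunit that in mammals is shared by the receptors of interleukins 10 and 22 and others. It stood at 60.8, 58.9 and 39.0 CPM in IEC and 82.6, 70.8 and 73.9 CPM in LRE. All LRE values were above all IEC values, but the log2 fold change of 0.52 ± 0.27 did not pass (adjusted p = 0.377). A receptor gene for interleukins 4 and 13, il13ra1, ranged over 71.7 to 110.5 CPM in IEC and 76.7 to 154 CPM in LRE (0.11 ± 0.35). The gene il20ra, for a subunit of the interleukin 20 receptor in mammals, ranged over 32.2 to 57.6 and 32.9 to 36.9 CPM (-0.32 ± 0.29). For il6st, the shared signal chain of the interleukin 6 family known as gp130, the ranges were 27.1 to 65.6 and 22.7 to 29.7 CPM (-0.66 ± 0.36).

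Interleukin 17 drives antimicrobial defence in mammalian epithelia. Of its 4 tested receptor genes 3 had a positive log2 fold change, and none of the 4 passed in edgeR. The gene il17rc read 14.9, 23.8 and 15.7 CPM in IEC and 29.1, 51.5 and 29.9 CPM in LRE. The groups did not overlap (1.02 ± 0.34, adjusted p = 0.167, edgeR). IL17RD, a relative in that receptor family, read 4.36, 6.02 and 11.0 CPM against 13.0, 13.8 and 14.5 CPM (0.95 ± 0.43, adjusted p = 0.31). The value of il17rel, 2.41 ± 2.11, came from 0, 0.618 and 0 CPM against 0, 1.78 and 1.61 CPM. The negative one was il17ra1a, at 9.91, 6.33 and 7.84 CPM in IEC and 9.43, 3.62 and 2.99 CPM in LRE (-0.59 ± 0.55). The subunit genes il2rga, il7r, il6r, il4r.1 and il10ra overlapped between the groups, at log2 fold changes of -0.43, -0.19, -0.61, -0.35 and -2.10.

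**Figure D2:**
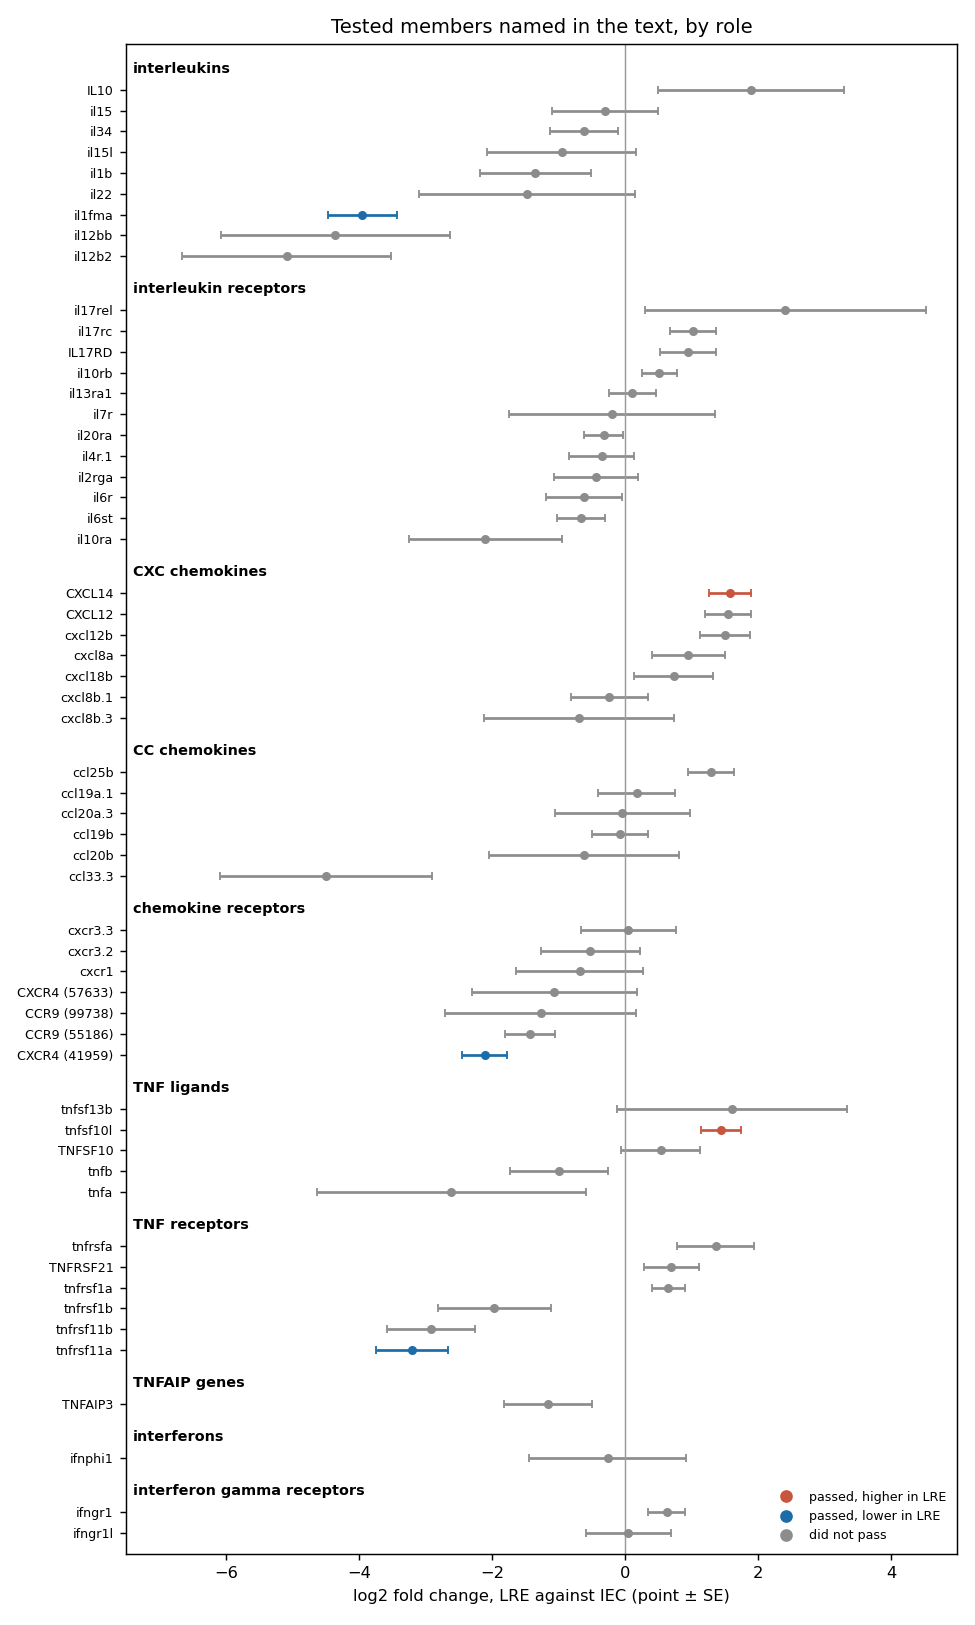
Log2 fold change of LRE against IEC with its SE for the tested members named here by rule, grouped by role; blue and red points passed, grey points did not, and the 3 genes with 3 or fewer counts in LRE (il22ra2, il12rb1 and CCR6 ENSDARG00000038968) are left out. Interleukins lie on the negative side except IL10, while CXCL14, CXCL12 and cxcl12b lie together at 1.51 to 1.58 and tnfrsf11a and tnfrsf11b at -3.20 and -2.92.

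Of 17 CXC chemokine genes 10 were tested and 1 passed, higher in LRE. Positive and negative log2 fold changes numbered 5 each. CXCL14 encodes a chemokine made by epithelia in mammals. It stood at 14.4, 15.5 and 12.3 CPM in IEC and 31.9, 35.7 and 58.3 CPM in LRE, so that each LRE library was above each IEC library. The log2 fold change was 1.58 ± 0.32 (adjusted p = 0.0377, edgeR). The call was lost under scaling by totals alone (1.23, adjusted p = 0.249), which moved the median of all genes by -0.40, and without any 1 library except LRE 1 (0.0778 to 0.173).

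CXCL12 and cxcl12b, copies of the gene for the ligand of the receptor CXCR4, lay beside it without passing. CXCL12 read 17.2, 23.2 and 18.0 CPM in IEC and 79.4, 56.3 and 34.6 CPM in LRE. Its log2 fold change was 1.54 ± 0.35 (adjusted p = 0.0534, edgeR), and with the replicate block it passed at 1.47 (adjusted p = 0.0481). DESeq2, the fit with no filter and the filter of 1 CPM in 3 libraries also called it, 4 of 15 alternatives in all. The copy cxcl12b read 3.98, 5.30 and 5.52 CPM in IEC and 14.2, 16.1 and 11.8 CPM in LRE (1.51 ± 0.37, adjusted p = 0.0721, edgeR). Of the 15 alternatives, DESeq2 alone called cxcl12b. In both genes the groups did not overlap.

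Marker genes of several other cell types were on the same side as these 3 chemokine genes. For fibroblasts and mesenchyme, the summed level was 708, 1470 and 1336 CPM in IEC and 2687, 3057 and 4076 CPM in LRE, and all 11 had a positive log2 fold change. None of the 11 passed in edgeR (6 at an unadjusted p under 0.05), while DESeq2 called 5 and limma voom 2. SPARC, among them, stood at 134 to 188 CPM in IEC and 277 to 523 CPM in LRE. A positive log2 fold change was also found for 9 of 9 liver markers (646 to 1403 CPM summed in IEC, 1008 to 2151 in LRE), 6 of 6 of endothelium (7.84 to 19.6 and 18.5 to 25.1), 4 of 4 of neurons (79.0 to 149 and 155 to 216) and 6 of 7 of muscle (485 to 546 and 626 to 854). None of these 26 passed in edgeR (12 at an unadjusted p under 0.05; DESeq2 called 2 neuron markers higher and 1 muscle marker lower, limma voom 0). The part of any of these cells in the chemokine values was not tested.

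A receptor of CXCL12, CXCR4, was on the opposite side. CXCR4 (ENSDARG00000041959), which guides migrating cells along CXCL12, read 96.4, 125 and 107 CPM in IEC and 36.1, 16.0 and 24.0 CPM in LRE. Every LRE library lay below every IEC library. The log2 fold change was -2.11 ± 0.34 (adjusted p = 0.0172, edgeR). It passed without IEC 1, LRE 1 or LRE 2, and not without IEC 2, IEC 3 or LRE 3 (adjusted p 0.0575, 0.0628 and 0.0738). The other gene with this symbol, ENSDARG00000057633, read 4.17, 8.59 and 5.92 CPM in IEC and 0, 3.50 and 5.42 CPM in LRE, which overlapped (-1.06 ± 1.24). The name table does not give which of the paralogs of zebrafish each one is. ACKR3, another receptor gene for CXCL12, did not pass in edgeR or limma voom. DESeq2 and the fit with the replicate block called ACKR3 higher in LRE, the same side as CXCL12.

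**Figure D3:**
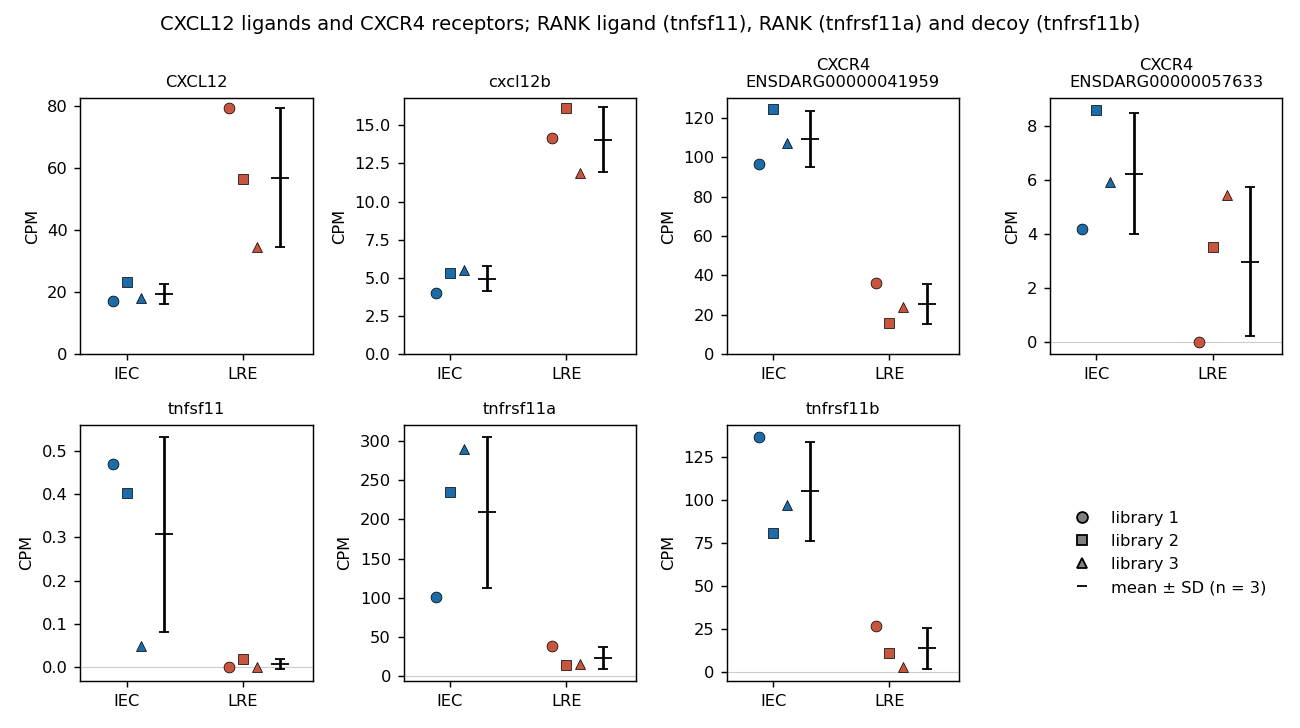
CPM in each library, with 1 panel a gene and bars for the mean ± SD (n = 3), for CXCL12, cxcl12b and both CXCR4 genes, and for tnfsf11, tnfrsf11a and tnfrsf11b. Both CXCL12 genes are higher in every LRE library than in any IEC library, and CXCR4 (ENSDARG00000041959), tnfrsf11a and tnfrsf11b are lower.

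The remaining chemokine receptors gave no further call among the 15 tested of 21, whose median log2 fold change was -0.68 (0.11 without IEC library 2 and -1.37 in limma voom). CCR9 (ENSDARG00000055186) encodes the receptor of CCL25, a homing signal of the small intestine in mammals. It stood at 102, 66.7 and 42.3 CPM in IEC and 27.7, 18.8 and 31.9 CPM in LRE. The groups did not overlap, but the log2 fold change of -1.43 ± 0.37 did not pass (adjusted p = 0.0864, edgeR). CCR6 (ENSDARG00000038968), named for the receptor of CCL20, read 1.00, 0.618 and 1.36 CPM in IEC, 157 counts, and 0 in LRE, so it was at least 40.7-fold lower (adjusted p = 0.0589, edgeR). It met the low-count filter only through its IEC libraries, so it could hardly lie above IEC. DESeq2 called this CCR9 gene, and limma voom this CCR6 gene. The receptor gene cxcr3.3 read 11.4, 52.6 and 12.4 CPM in IEC and 9.67, 47.4 and 22.2 CPM in LRE (0.05 ± 0.71), highest in library 2 of each group.

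CC chemokines had no member past the test among 21 tested of 33 (edgeR; 2 at an unadjusted p under 0.05). DESeq2 called ccl25b and ccl33.3, and limma voom called ccl25b. The gene ccl25b, for the ligand of CCR9, read 21.6, 12.9 and 9.99 CPM in IEC and 34.1, 40.8 and 33.9 CPM in LRE. This gene and CCR9 (ENSDARG00000055186) stood on opposite sides of the comparison without overlap between groups, though neither passed in edgeR. The other CCR9 gene, ENSDARG00000099738, read 0.470, 1.11 and 1.77 CPM in IEC and 0, 1.01 and 0.369 CPM in LRE, which overlapped (-1.27 ± 1.43). ACKR4, another receptor gene for CCL25, was called higher in LRE by DESeq2 and not by edgeR or limma voom. The log2 fold change of ccl25b was 1.29 ± 0.34 (adjusted p = 0.0904, edgeR); without IEC library 1 it was 1.66 and passed (adjusted p = 0.0482).

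The gene ccl33.3 read 4.77, 2.01 and 3.52 CPM in IEC and 0, 0.435 and 0 CPM in LRE (-4.49 ± 1.6, adjusted p = 0.191, edgeR). It met the low-count filter only through its IEC libraries, so it could hardly lie above IEC. All its LRE reads lay in library 2, and a fit without that library, which left no LRE read, called it (adjusted p = 0.0431, edgeR). For ccl19b, whose mammalian counterpart attracts lymphocytes and dendritic cells, levels were 46.5, 28.2 and 15.1 CPM against 25.9, 37.0 and 22.4 CPM (-0.08 ± 0.42). The copies named for CCL20, ccl20a.3 and ccl20b, overlapped at -0.04 ± 1.01 and -0.61 ± 1.43. Many CC chemokine genes of zebrafish lie in families of near copies (the ccl34, ccl38 and ccl39 genes, and among CXC genes cxcl11 and cxcl8b), so reads may have been split or dropped between them and their values are uncertain.

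Chemokine genes known for drawing neutrophils overlapped between the groups. The interleukin 8 gene cxcl8a read 20.0, 38.3 and 16.4 CPM in IEC and 17.3, 80.8 and 46.4 CPM in LRE (0.95 ± 0.55, adjusted p = 0.438, edgeR). The fish chemokine gene cxcl18b read 11.1, 27.7 and 16.98 CPM against 10.7, 58.9 and 23.1 CPM (0.73 ± 0.60). Both were highest in library 2 of each group. The copy cxcl8b.1 was at 8.92 to 35.0 CPM in IEC and 9.26 to 19.7 CPM in LRE. One gene chosen here after its values were seen, cxcl20, read 38.9, 11.4 and 13.0 CPM in IEC and 6.25, 3.76 and 3.71 CPM in LRE (-2.21 ± 0.55, adjusted p = 0.0759); it was called with the replicate block, by DESeq2, under scaling by totals alone and with no filter.

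TNF superfamily ligands gave 1 call among 8 tested of 10. The gene tnfsf10l is one of the zebrafish relatives of TRAIL, a ligand that can trigger cell death. Its levels were 8.47, 8.82 and 10.9 CPM in IEC and 27.2, 21.7 and 27.9 CPM in LRE. The groups were far apart, with little spread within either. The log2 fold change was 1.44 ± 0.30 (adjusted p = 0.0405, edgeR); the call was lost under scaling by totals alone (1.01, adjusted p = 0.314) and without any 1 library (0.0702 to 0.158). The gene named TNFSF10 itself read 1.90 to 4.08 CPM in IEC and 3.10 to 4.65 CPM in LRE (0.54 ± 0.60).

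The genes of TNF itself, tnfa and tnfb, overlapped between the groups. The levels of tnfa were 2.07, 21.9 and 0 CPM in IEC and 0, 3.42 and 0.477 CPM in LRE (-2.61 ± 2.02, adjusted p = 0.586, edgeR). Most of its signal lay in IEC library 2. The levels of tnfb were 57.7, 58.7 and 7.03 CPM in IEC and 9.43, 35.4 and 17.3 CPM in LRE (-0.99 ± 0.74). The B cell growth factor gene tnfsf13b ranged up to 1.15 CPM in IEC and read 4.41, 0.633 and 0 CPM in LRE (1.62 ± 1.73).

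Among the TNF receptors all 11 were tested and 1 passed, tnfrsf11a, which encodes RANK. In mammals RANK signalling is needed for bone-resorbing cells and for the antigen-sampling M cells of the gut, and osteoprotegerin, the product of tnfrsf11b, is a soluble decoy for the same ligand. The levels of tnfrsf11a were 101.5, 235 and 289 CPM in IEC and 38.9, 14.4 and 15.01 CPM in LRE. All IEC libraries were far above all LRE libraries, with a log2 fold change of -3.20 ± 0.55 (adjusted p = 0.0206, edgeR). The call was lost without IEC 2, IEC 3, LRE 2 or LRE 3 (adjusted p 0.0588, 0.0674, 0.0739 and 0.0853).

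The decoy gene tnfrsf11b was close to passing in the same direction. It read 137, 81.3 and 97.3 CPM in IEC and 27.2, 11.3 and 3.34 CPM in LRE. The groups did not overlap (-2.92 ± 0.67, adjusted p = 0.0558, edgeR). It passed with the replicate block (-3.30, adjusted p = 0.0259) and without LRE library 1 (-3.84, adjusted p = 0.0228). DESeq2, limma voom, scaling by totals alone and the fit with no filter also called tnfrsf11b, 6 of 15 alternatives in all. The ligand gene, tnfsf11, chosen here after its values were seen, failed the low-count filter with 15, 28 and 3 counts in IEC and 0, 1 and 0 in LRE, a ratio of 35.8 after scaling (95% exact counting interval 6.11 to 1443).

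The other TNF receptors had values in both directions. The main TNF receptor gene tnfrsf1a read 24.1, 29.7 and 28.7 CPM in IEC and 47.9, 41.6 and 40.1 CPM in LRE, without overlap (0.65 ± 0.25, adjusted p = 0.219, edgeR). The second TNF receptor gene, tnfrsf1b, read 7.18, 5.89 and 1.97 CPM against 0.615, 2.63 and 0.586 CPM (-1.96 ± 0.85, adjusted p = 0.288). The gene tnfrsfa read 4.83, 25.3 and 11.8 CPM in IEC and 24.8, 53.6 and 30.0 CPM in LRE. Those groups overlapped, while within each number the LRE library was the higher, and the log2 fold change was 1.37 ± 0.58 (adjusted p = 0.272) and, with the replicate block, 1.58 (adjusted p = 0.0469). TNFRSF21, a death receptor gene, read 7.15 to 14.1 CPM in IEC and 12.8 to 23.5 CPM in LRE (0.70 ± 0.41).

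The enteroendocrine and goblet marker genes stood on the same side between the groups as the members that were lower in LRE. Within IEC the enteroendocrine sum was highest in library 1. The members called lower in LRE differed there: tnfrsf11a, CXCR4 and il22ra2 were at their lowest within IEC. In the same library il1fma was at its highest, and il12rb1 lay between. Most of the sum in that library was insl5a, at 7381 CPM. NEUROD1 read 97.1, 82.4 and 99.9 CPM in IEC and 51.8, 33.7 and 48.1 CPM in LRE, without overlap (adjusted p = 0.0756, edgeR). The sum therefore does not give how many such cells each library held. The summed level of the 8 enteroendocrine markers was 9443, 1173 and 1507 CPM in IEC and 1129, 381 and 168 CPM in LRE, all 8 with a negative log2 fold change. The hormone genes gip and ghrl passed in edgeR. DESeq2 called 3 of the 8 lower in LRE, NEUROD1, chga and ghrl, limma voom 1, ghrl, and the replicate block 6. The 6 goblet markers, of which none passed in edgeR (2 at an unadjusted p under 0.05; none in DESeq2 or limma voom), summed to 1099 to 2429 CPM in IEC and 238 to 891 CPM in LRE. The part of these cells in the values of il1fma, CXCR4, tnfrsf11a and the other lower members was not tested.

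No TNFAIP gene passed among the 9 tested (edgeR; 3 at an unadjusted p under 0.05), whereas DESeq2 called 1, tnfaip8l2a, and limma voom 0. TNFAIP3 encodes A20, an inhibitor of NF-kB. It read 17.1, 109 and 48.4 CPM in IEC and 14.8, 45.8 and 17.7 CPM in LRE (-1.16 ± 0.67, adjusted p = 0.437, edgeR). Library 2 was again highest in each group.

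Interferon genes had few reads in these libraries. Of 5 genes 3 had a read and 1, ifnphi1, a type I interferon gene of fish, passed the filter, at 0.0992 to 1.16 CPM in IEC and 0.347 to 0.649 CPM in LRE (-0.26 ± 1.18). The interferon gamma gene ifng1 had 5 counts, all in IEC library 2. Of the 4 genes sorted as interferon gamma receptors 3 had reads in every library. The other, ifng1r, had 2 counts in all, and was placed there by spelling alone, so it may not be a receptor gene. The level of ifngr1 was 45.7, 62.9 and 38.8 CPM in IEC and 71.4, 87.2 and 68.9 CPM in LRE, without overlap but short of the threshold (0.63 ± 0.27, adjusted p = 0.294, edgeR). Its relative ifngr1l read 1.54 to 7.81 and 4.20 to 5.26 CPM (0.05 ± 0.65), and the partner subunit gene ifngr2 read 32.1 to 43.8 and 27.0 to 34.7 CPM (-0.34 ± 0.26).

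Genes of the pathways that read out these signals gave few calls. None of 30 tested JAK-STAT genes passed in edgeR (3 at an unadjusted p under 0.05; DESeq2 called 1 and limma voom 0). None of 44 tested genes of TNF, interleukin 1 and NF-kB signalling passed either. In edgeR 12 had an unadjusted p under 0.05, or 27.3% against 16.98% of all genes. DESeq2 called 1 higher and 3 lower, beside 1245 higher and 819 lower of all 20979 genes, and limma voom called 0. The replicate block called 367 of all 20979 genes lower in LRE. In this list those called lower were 4: nfkb2, relb, tnip2 and traf3. Among them nfkb2, an NF-kB subunit gene, read 36.9, 90.8 and 54.4 CPM in IEC and 22.7, 29.5 and 18.1 CPM in LRE.

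A list of 41 tested genes of the same families under other names held 1 gene higher and 1 lower. The gene crlf1b, for a soluble cytokine receptor-like factor, read 1.98, 3.10 and 2.73 CPM in IEC and 10.01, 9.99 and 13.7 CPM in LRE (2.105 ± 0.43, adjusted p = 0.0407, edgeR). A class II cytokine receptor family gene, crfb15, read 22.4, 15.8 and 23.8 CPM in IEC and 5.09, 1.25 and 1.37 CPM in LRE (-3.02 ± 0.61, adjusted p = 0.0382). Groups did not overlap for either gene. Leaving out any 1 library except LRE 1 ended both calls (adjusted p 0.0944 to 0.172 for crlf1b and 0.0788 to 0.127 for crfb15), and scaling by totals alone ended that of crlf1b (0.231).

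A pattern noticed after the values were seen was that 33 of the 119 tested members (27.7%) were highest in library 2 of both groups, against 15.3% of all genes. Library 2 was also the deepest of each group, at 52824999 counts in IEC and 53250871 in LRE, with the most genes read. Some of the 33, such as ccl34b.8 and il4i1, had 0 or few reads in the other libraries. The 33 had mixed roles and margins. Within IEC, library 2 stood at 1.02 times the next library for tnfb and il34 and at 10.6 times for tnfa. Besides il1b, tnfa, tnfb, cxcl8a, cxcl18b, cxcr3.3 and TNFAIP3 they included TNFRSF21, il13ra1, il34, il11b, of the interleukin 6 family, and cxcl19. The levels of il11b were 1.19, 8.06 and 0.116 CPM in IEC and 0.547, 6.19 and 0.477 CPM in LRE. The gene il6, which did not pass the filter, had 0, 384 and 0 counts in IEC and 2, 79 and 1 in LRE.

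**Figure D4:**
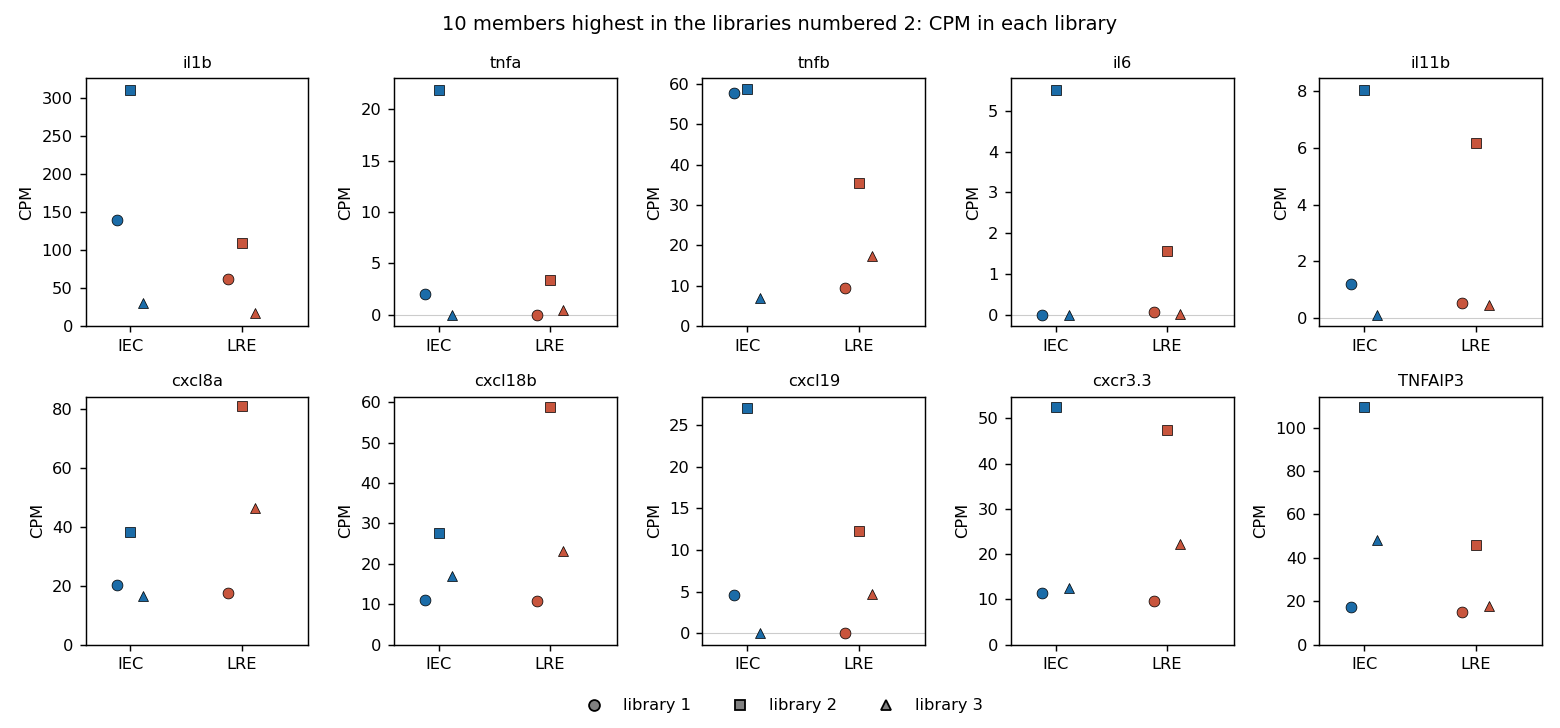
CPM in each library for 10 members chosen after their values were seen for this pattern, with 1 panel a gene and marker shape for the library number. The square of library 2 is the highest point within IEC and within LRE in every panel, for example 311 and 109.6 CPM for il1b and 8.06 and 6.19 CPM for il11b. For tnfb in IEC the margin is small, at 58.7 against 57.7 CPM.

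Some marker lists were highest in the same libraries. The 10 general leukocyte markers summed to 399, 806 and 284 CPM in IEC and 197, 330 and 207 CPM in LRE, and the 19 macrophage markers to 48.0, 272 and 56.2 CPM and 63.9, 117 and 34.5 CPM. Library 2 was highest for both lists within each group, and also for the 12 exocrine pancreas markers (1922 to 5738 CPM in IEC and 514 to 6608 CPM in LRE). No other immune list was highest in library 2 of both groups. The 6 neutrophil markers summed to 693, 661 and 243 CPM in IEC and 225, 348 and 237 CPM in LRE, the 11 T and natural killer cell markers to 34.5 to 69.3 and 30.4 to 51.2 CPM, and the 6 B cell markers to 2.03 to 10.1 and 3.62 to 5.47 CPM.

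Of the 43 immune markers tested in all 5 lists 34 had a negative log2 fold change, against 11119 of the 20979 genes tested. For some the sign could hardly be otherwise: ZAP70 met the low-count filter only through its IEC libraries, and cd79a only through its LRE libraries. None of the 43 passed in edgeR, and 8 had an unadjusted p under 0.05 there, a level that 16.98% of all genes reached. DESeq2 called 4, all lower in LRE, beside 819 lower of all 20979 genes, and limma voom 0. With the replicate block 5 were lower, beside 367 of all 20979 genes. The pan-leukocyte gene ptprc had reads in every library, 6.33 to 28.9 CPM in IEC and 0.171 to 8.07 CPM in LRE, while the T cell gene cd8a had none in any. Without IEC library 2 the median over tested immune markers went from -0.86 to 0.03, beside the members' move from -0.36 to 0.08. That library held the highest IEC value for 62 of the 119 tested members, so leaving it out could hardly lower their median. The parallel move therefore cannot decide whether the members and the markers vary together. Without LRE library 1 the medians were -0.78 for the immune markers and -0.31 for the members. The part of leukocytes or other cells in the members' values was not tested.

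**Figure D5:**
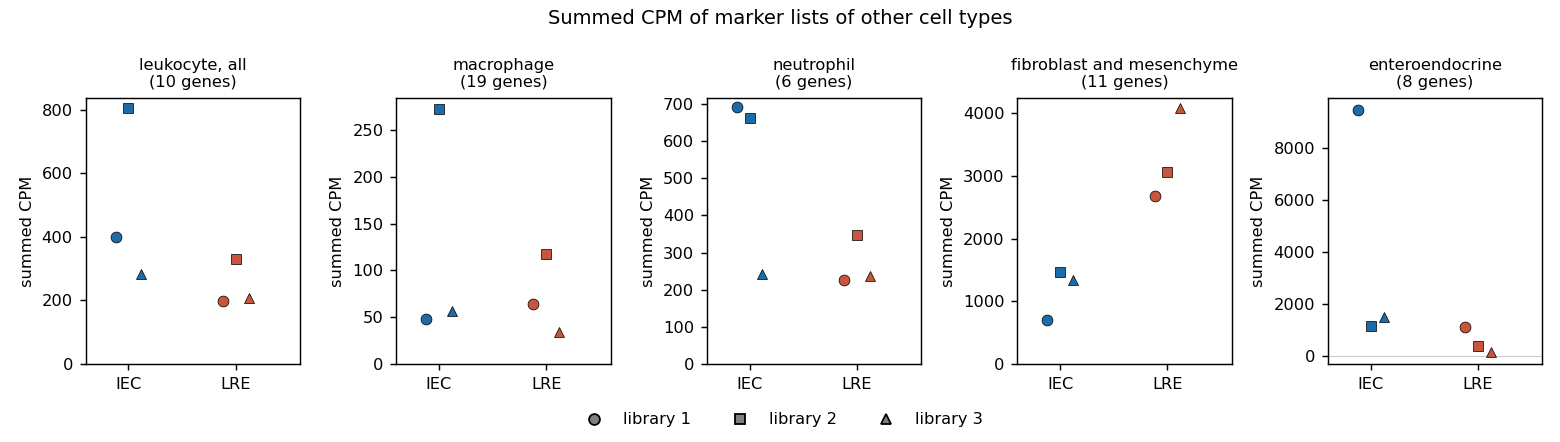
Summed CPM in each library of marker lists of 5 other cell types, with the number of genes in each panel title and marker shape for the library number. Leukocyte and macrophage sums are highest in library 2 of each group, fibroblast and mesenchyme sums are at least 2687 CPM in LRE and at most 1470 CPM in IEC, and the enteroendocrine sum of IEC library 1 stands at 9443 CPM.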

How the data were processed

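RNA-seq of sorted zebrafish gut cells gave 1 file per library of whole-number counts per Ensembl gene, deposited by the authors without normalization. HISAT2 alignments to GRCz10 were counted per gene by HTSeq, per the submitters' processing notes. Not given in the sources used here are versions, annotation and strand setting, so reads of overlapping or antisense genes cannot be told apart. Libraries came from an ultra low input kit, per the labels' protocols, and such amplification can widen the spread between libraries. Every entry in the files was an Ensembl gene ID. Only 27000 of the 35117 IDs had a symbol, so a gene without a symbol could not be a member. Symbols came from a table of gene names, many written in capitals without a paralog letter, and were matched ignoring case. No genome was used here, and no sequence or coordinate is given.

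Groups came from the sample titles. Both groups entered a quasi-likelihood F test with TMM factors (edgeR 4.0.16, R 4.3.3). The default filterByExpr (minimum count 10, minimum total 15) left 20979 genes, over all of which p-values were adjusted by the Benjamini-Hochberg method, with a threshold of 0.05. The SE is the size of the log2 fold change divided by the root of F, and the biological coefficient of variation was 0.651. The steps were also run on simulated data with less spread than these libraries, so that run cannot show how well they work here. Floors of 3 counts and 95% counting intervals cover counting error only. A median over members or a role that includes genes at 0 in LRE was the same with those genes at their bound.

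The numbers 1 to 3 occur in both groups. Between libraries of equal number, the deviations from their group's mean correlated at 0.290, 0.366 and 0.282, and between the others at -0.249 to -0.0563 (Pearson's r across genes, which are not independent replicates). The numbers were therefore taken to pair libraries, from the data alone, and a fit that blocks on the number was tried. Further alternatives were upper-quartile and RLE factors, totals alone for scaling, 1 CPM in 3 libraries or nothing as the filter, DESeq2 1.42.0, limma 3.58.1 voom, and leaving out each library or both libraries numbered 1.

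Members named by rule were those that passed, the 10 with the most reads, the 8 largest and 8 smallest log2 fold changes, and a list of well-known genes, 66 in all. Other members were outside this rule and were named with their values known. Among them were il4, il7, il11a, il17c, il12rb2l, il17ra1a, il11b, cxcl19, ifngr2 and tnfaip8l2a. Members, gene lists and this list were chosen with earlier results of these data known.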

Additional observations from a re-analysis of the deposited data

How the results depend on the processing

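Against 2 members higher in LRE and 5 lower in the edgeR fit, scaling by totals alone gave 0 higher and the CPM filter 3 lower. DESeq2 gave 5 higher and 13 lower, and the fit without both libraries numbered 1 gave 0 higher. Of all genes the edgeR fit called 3.21%, totals alone 1.52%, the filter of 1 CPM in 3 libraries 4.31% and the replicate block 5.51%. DESeq2 called 9.84%, with 1245 genes higher and 819 lower, and limma voom 4.27%. Without both libraries numbered 1 the share was 1.81%, and without any 1 library 0.804% to 3.09%. Member counts of different settings are therefore not on 1 scale. With the replicate block that pairs equal numbers, 4 members were higher and 7 lower; among the named members it gave calls to il1b, CXCL12, tnfrsf11b and tnfrsfa and took that of il12rb1, and it changed no other named call. Leaving out each library in turn gave 0 to 1 higher and 1 to 6 lower; il1fma passed every time, and its log2 fold change ranged from -4.33 to -3.68 over all alternatives. Of the pathway genes, 1 was higher and 1 lower; RLE factors gave 2 higher, totals alone 0, no filter 3, the CPM filter 3, limma voom 4, DESeq2 7 higher and 5 lower, the block 3 higher and 5 lower, the fit without both libraries numbered 1 gave 0 higher, and leaving out each library 0 to 1 in either direction. Over the 59 tested named members and 15 alternatives there were 870 values: 759 kept sign and side of the threshold, 35 lost a call, 22 gained one and 54 changed sign with no call on either side, while no call changed direction. Only the 7 members called in the edgeR fit could lose a call. The call was lost in 8 of 14 alternatives for il12rb1, 8 of 15 for tnfsf10l, 7 of 15 for CXCL14 and 5 of 14 for il22ra2. For tnfrsf11a it was 4 of 15, for CXCR4 3 of 15 and for il1fma 0 of 15. Among the other members, keeping the side of the threshold meant staying uncalled. Scaling by totals alone moved the median of all genes by -0.40. The causes were not tested. With 3 libraries per group and a biological coefficient of variation of 0.651, small differences could not be resolved, and 49 members were too low to test.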
